A study of Mus musculus with 2 samples.

Results

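Genes that ubiquitinate RNA polymerase II or rescue it when it stalls were followed in B cells with and without Nedd4. The 10 genes were taken by name from a table of 23288 genes: the elongin genes Tceb1, Tceb2 and Tceb3, the cullin-RING ligase genes Cul5, Rnf7 and Cul3, the transcription-coupled repair genes Ercc6, Ercc8 and Xab2, and Tcea1. All 10 had 1 line each in every table. They are spread over chromosomes 1 (Tceb1, Cul3 and Tcea1), 4 (Tceb3), 8 (Xab2), 9 (Cul5 and Rnf7), 13 (Ercc8), 14 (Ercc6) and 17 (Tceb2), with transcripts of 537 nt for Tceb2 to 8423 nt for Ercc6 in the GENCODE M21 annotation. For each, the tables give RPKM, the number of reads per kilobase of its transcript at equal library size, and a value for the 1 kb upstream of it.

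RNA came from splenic B cells of fetal liver chimeric mice, in which grafted fetal liver gives rise to the blood. The cells were of a B6:129 background backcrossed to B6, and both cultures were kept for 72 hours with lipopolysaccharide (LPS) and interleukin 4 (IL-4) to drive switching to IgG1. Ribosomal RNA was depleted and 1 library of each genotype, Nedd4+/+ and Nedd4-/-, was sequenced. With a single library on each side the genotypes could not be tested and no difference below was checked in replicates. The labels name neither the host animals nor how many were used per library, and do not say whether host B cells remained.

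An RNA polymerase II that stops at DNA damage or a pause site blocks the gene it is reading. One response is rescue: TFIIS makes the polymerase cut the end of its RNA so that it can restart, and the Cockayne syndrome proteins recruit excision repair to the lesion. Another is removal, in which ubiquitin ligases mark the largest polymerase subunit for the proteasome. Nedd4, a ligase of the HECT class, attaches the first ubiquitin, and a ligase built from elongins A, B and C with a cullin and a RING protein extends it to a chain.

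Sequencing depth, recovered from the deposited values, was 8.40 gigabases for Nedd4+/+ and 6.17 gigabases for Nedd4-/-. Values below are given in the order Nedd4+/+, then Nedd4-/-. Nedd4 itself stood at 7.59 and 1.95 RPKM. All 8 markers of B cells and all 4 of activated B cells reached a mean of 1 RPKM. None of 5 markers of T cells, 4 of natural killer and innate lymphoid cells and 6 of myeloid cells did. Of 4 erythroid markers Hba-a1 did (1.74 and 0.897 RPKM), and of 4 stromal and endothelial markers Pecam1 did (2.145 and 1.25 RPKM). The summed level of 4 plasmablast markers was 358 and 186 RPKM, and that of the 8 B cell markers was 515 and 406 RPKM. Their part in the differences below was not tested. Xist stood at 23.7 and 0.0958 RPKM, while the Y-linked genes Eif2s3y, Ddx3y, Uty and Kdm5d were higher in the Nedd4-/- library. Eif2s3y stood at 5.14 and 18.8 RPKM and Ddx3y at 2.63 and 10.6 RPKM. Uty stood at 1.62 and 5.23 RPKM and Kdm5d at 1.18 and 3.95 RPKM. Y-linked levels in Nedd4+/+ cells were thus above 1 RPKM although Xist was high. Whether male and female cells were mixed there, from donors or hosts, was not tested. Sex and genotype cannot be told apart in any value below. In bulk RNA, fewer cells of a type and less RNA per cell cannot be told apart either.

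Levels of genes in general differed between the libraries, and the 10 genes are read against that background. Log2 ratios are log2((Nedd4-/- + 1)/(Nedd4+/+ + 1)) in RPKM, and a gene counts as tested if its mean reached 1 RPKM. Of 9405 genes tested, 92.7% were lower in the Nedd4-/- library and the median log2 ratio was -0.31. The share of read bases in transcripts of known length was 32.6% and 24.4%. A value called relative is a log2 ratio minus that median. Intervals of log2 ratios are exact Clopper-Pearson 95% intervals from approximate numbers of read pairs, without a pseudocount. For differences in the proportions between genes the intervals are normal approximations, and for single levels Poisson intervals, from the same read pairs. They take in counting error alone, and without molecular identifiers reads are not independent molecules.

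None of the 10 genes was at least 2-fold different, against 1.29% of all genes tested. All 10 had the lower level in the Nedd4-/- library as deposited, but 8 of 10 ratios exceeded the median over all genes, and 10 of 10 did so without a pseudocount. When levels were scaled to the reads in annotated transcripts, 10 of 10 were higher in the Nedd4-/- library, as were 55.9% of all genes tested. Their log2 ratios ran from -0.34 to -0.06 with a median of -0.26, or 0.05 relative to all genes. This range held 43.6% of all genes tested. The middle 50 percent of genes lay between -0.45 and -0.18, and 8 of the 10 were inside it. The other two, Tceb1 and Ercc6, lay above it.

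**Figure D1:**
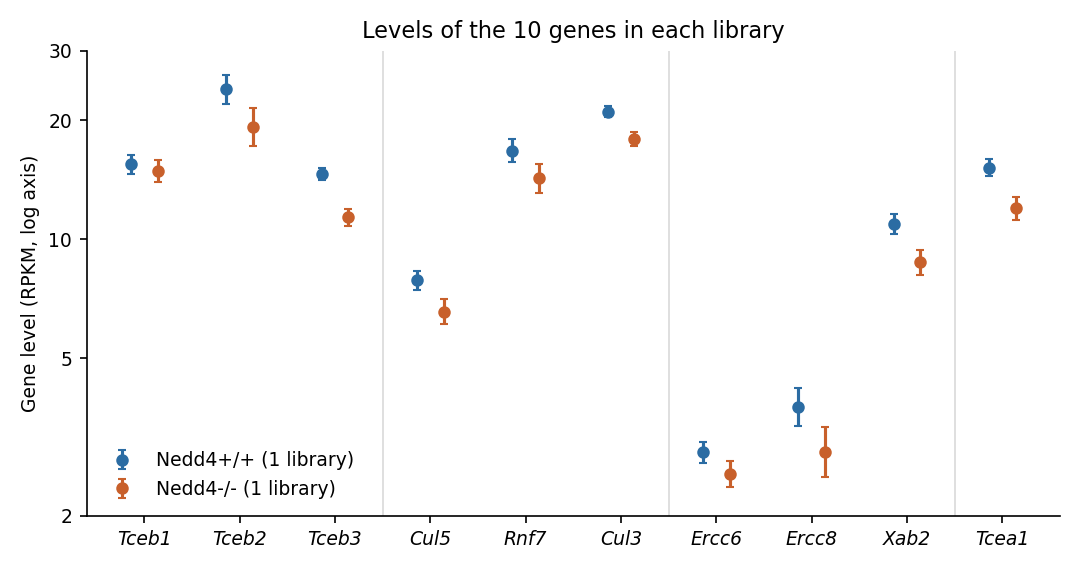
Level of each of the 10 genes in RPKM on a log axis, in the Nedd4+/+ library (blue) and the Nedd4-/- library (orange), with 95% Poisson counting intervals; grey lines separate elongins, cullin-RING genes, coupling factors and TFIIS. Tceb2 is highest and Ercc6 lowest in both libraries, and the libraries' intervals overlap for Tceb1 and Ercc6.

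The elongins were expressed at unequal levels. Tceb2 encodes elongin B, a ubiquitin-like protein, and was the highest of the 10, at 24.0 and 19.3 RPKM (log2 ratio -0.30, counting interval -0.52 to -0.11). Tceb1 encodes elongin C, which joins elongin B to the substrate receptor and the cullin, and stood at 15.5 and 14.9 RPKM. Its log2 ratio of -0.06 had an interval of -0.18 to 0.06. It was the only one of the 10 whose interval included equal levels, and 89.0% of all genes tested had a lower ratio. Tceb3 encodes elongin A, the subunit that stimulates elongation and serves as substrate receptor for the polymerase, and stood at 14.6 and 11.4 RPKM (-0.34, interval -0.45 to -0.27). It lay near the median of all genes, at -0.02 relative, and had the lowest ratio of the 10 with 1 RPKM added, whereas without a pseudocount Ercc8 was lower (-0.38, against -0.36 for Tceb3).

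Among the elongin genes the RNA level of Tceb1 was therefore 1.06 times that of Tceb3 in Nedd4+/+ and 1.31 times in Nedd4-/- cells. The make-up of the protein complex was not measured. The log2 difference between these proportions was 0.30, with a counting interval of 0.15 to 0.45. How often other pairs of genes differ by as much was not computed. Single genes also spread: without a pseudocount the middle 50 percent of all genes tested lay between -0.55 and -0.23. Against Tceb2, Tceb1 stood at 0.647 and 0.772 (log2 difference 0.25, interval 0.02 to 0.49). Tceb2 was 1.64 and 1.69 times as high as Tceb3, a log2 difference of 0.05 with an interval of -0.17 to 0.27. These proportions do not depend on the scaling of a library, since both genes of a pair share it.

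The genes of the cullin and RING subunits kept their order. Cul5, the cullin scaffold of the mammalian elongin ligase, stood at 7.88 and 6.56 RPKM (-0.23, interval -0.40 to -0.13). Rnf7, also called Rbx2, is the RING protein that brings the ubiquitin-conjugating enzyme to Cul5. It stood at 16.8 and 14.3 RPKM (-0.21, interval -0.39 to -0.07). Cul3, the cullin of ligases with BTB adaptors, whose yeast namesake is the cullin of the polymerase ligase, was the second highest of the 10. It stood at 21.05 and 17.9 RPKM (-0.22, interval -0.30 to -0.16). All 3 lay above the median of all genes, at relative values of 0.08, 0.10 and 0.09. Nedd4 is also on chromosome 9, the chromosome of Cul5 and Rnf7.

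Proportions among these genes differed by less than the counting error. Cul3 was 2.67 times as high as Cul5 in the Nedd4+/+ library and 2.73 times in the Nedd4-/- library (log2 difference 0.03, interval -0.12 to 0.18). Rnf7 was 2.13 and 2.18 times as high as Cul5 (0.03, interval -0.17 to 0.24).

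The repair genes included the lowest levels of the set. Ercc6 encodes CSB, the ATPase that binds a stalled polymerase, and stood at 2.89 and 2.55 RPKM. Its log2 ratio was -0.13 (interval -0.32 to -0.04), and 81.3% of all genes tested had a lower one. The 1 RPKM added draws the ratios of low genes toward equal levels. With it, the median log2 ratio was -0.21 for 2929 genes between 1 and 3 RPKM. Without a pseudocount the ratio of Ercc6 was -0.18, against a median of -0.39 over all genes. Ercc8 encodes CSA, the substrate receptor of a CUL4 ligase that works with CSB, and stood at 3.77 and 2.90 RPKM (-0.29, interval -0.64 to -0.11). Xab2, a protein of splicing and of the repair complex, stood at 10.9 and 8.76 RPKM (-0.29, interval -0.45 to -0.18). The ratios of Ercc8 and Xab2 were both 0.02 above the median of all genes. Ercc8 was 1.304 and 1.14 times as high as Ercc6, a log2 difference of -0.20 whose interval of -0.49 to 0.10 included no difference.

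Tcea1 encodes the widely expressed form of TFIIS, which lets a backtracked polymerase resume. It stood at 15.2 and 12.0 RPKM (-0.32, interval -0.46 to -0.22), next to the median of all genes. Annotated transcripts with at least 95 percent identity over 202 nt (a read pair) or more exist for some of the 10: 3 for Tceb2, 2 for Rnf7 and 2 for Tcea1. How reads were divided among such copies is not given in the sources used here, so the levels of these 3 genes are uncertain. For Tceb3 the 1 match was an overlapping antisense transcript, whose reads cannot be told apart where strand is not recorded.

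The order of levels was nearly the same in both libraries. From the highest down it ran Tceb2, Cul3, Rnf7, Tceb1, Tcea1, Tceb3, Xab2, Cul5, Ercc8 and Ercc6 in the Nedd4+/+ library, and only Rnf7 and Tceb1 changed places in the Nedd4-/- library. In the Nedd4+/+ library the counting intervals of Rnf7 (15.6 to 17.9 RPKM), Tceb1 (14.7 to 16.4) and Tcea1 (14.4 to 15.9) overlapped. Tceb3 (14.1 to 15.2) overlapped Tceb1 and Tcea1 but not Rnf7.

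Counting error was small enough to place 4 of the 10 genes apart from the median of all genes, which was -0.39 without a pseudocount. The intervals of Tceb1, Ercc6, Cul3 and Rnf7 lay wholly above it, that of Rnf7 by less than the last digit printed here. Among all genes with a known length 18.8% did so and 23.2% lay wholly below, where none of the 10 was found. The intervals of 9 of the 10 lay wholly below equal levels, as did 74.4% of all genes. Compared with genes of their own level range (1 to 3, 3 to 10, and 10 to 30 RPKM), a reference added after seeing the data, all 10 had ratios above the median, which 50% of genes exceed by construction.

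**Figure D2:**
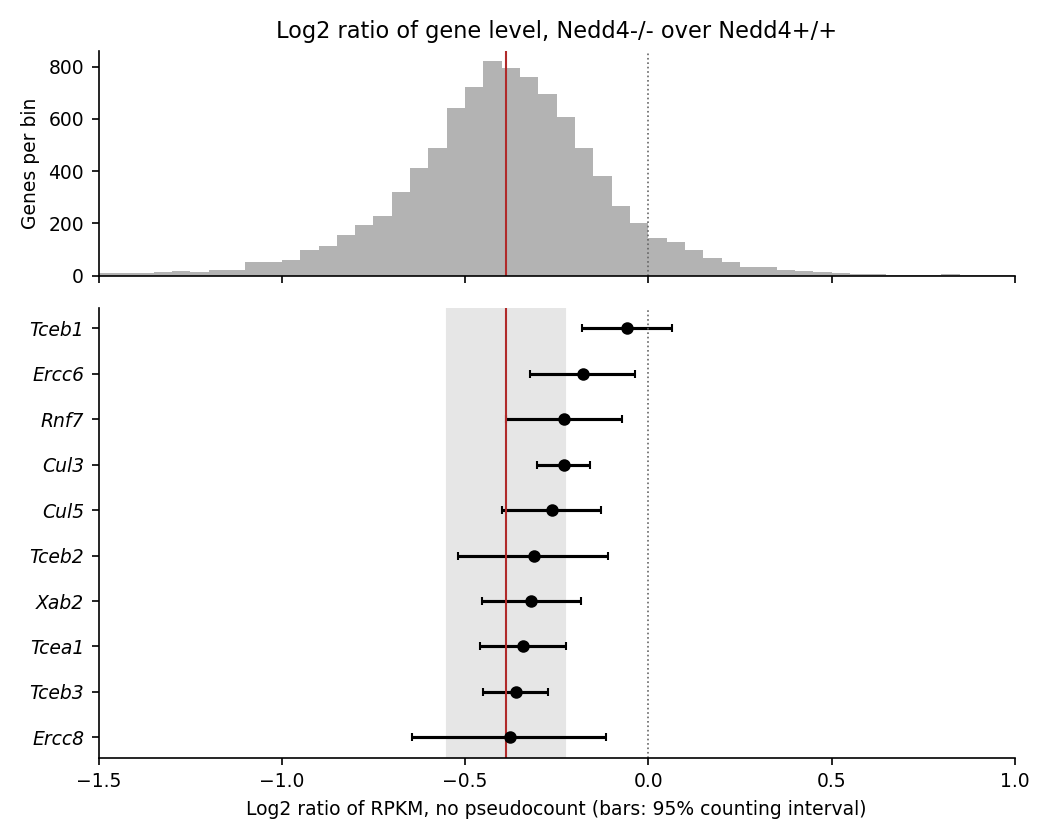
Top: number of tested genes per bin of the log2 ratio of RPKM without pseudocount. Bottom: the same ratio for the 10 genes with 95% counting intervals, the middle 50 percent of genes shaded; the red line is the median of all genes (-0.39), the dotted line equal levels. The intervals of Tceb1, Ercc6, Rnf7 and Cul3 lie to the right of the red line and only that of Tceb1 reaches the dotted line.

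In the kb upstream of a gene the libraries differed the other way. The 13883 genes under 1 RPKM also stood higher in the Nedd4-/- library, with median levels of 0.133 and 0.268 RPKM, and the Nedd4-/- level of the Cul5 window was below the latter. The part of this general difference at low levels in the windows was not tested. The upstream level is given in RPKM, and its log2 ratio has 0.1 RPKM added. A window counts as tested from a mean of 0.2 RPKM, which all 10 reached. Of 11837 windows tested, 71.2% were higher in the Nedd4-/- library, the median log2 ratio was 0.41, and 20.6% were at least 2-fold different. None of the 10 windows was. Of the 10, 8 were higher in the Nedd4-/- library, although relative to the median of all windows 4 were above and 6 below. The median log2 ratio of the 10 was 0.24, which is -0.17 relative to the median of all windows. Each window held between 8 and 48 read pairs per library. The counting intervals of all 10 included equal levels, as did those of 74.1% of all windows, so a difference at any one of them was not detectable at this depth.

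The 3 elongin windows had the highest ratios of the 10. That of Tceb3 stood at 0.298 and 0.569 RPKM (log2 ratio 0.75, interval -0.20 to 2.15). Tceb1 stood at 0.265 and 0.435 RPKM (0.55) and Tceb2 at 0.293 and 0.467 RPKM (0.53). The differences of these 3, between 0.170 and 0.272 RPKM, were above the median difference of 0.133 RPKM over all windows tested, and those of the other seven were not. Ercc6 followed, at 0.191 and 0.303 RPKM (0.47). The windows of Cul5 (0.208 and 0.246 RPKM) and Rnf7 (0.211 and 0.287 RPKM) were low in both libraries.

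The highest upstream levels were those of Xab2, Ercc8 and Cul3. The window of Xab2 stood at 1.16 and 0.963 RPKM, the lowest ratio of the 10 (-0.25, interval -0.999 to 0.41). That of Ercc8 stood at 1.13 and 1.14 RPKM (0.01), and that of Cul3 at 0.815 and 0.859 RPKM (0.07). The window of Tcea1, at 0.390 and 0.347 RPKM (-0.13), was the other one lower in the Nedd4-/- library. Relative to the level of its own gene the window of Ercc8 was the highest of the set. It stood at 0.301 times the gene in the Nedd4+/+ and 0.393 times in the Nedd4-/- library. The lowest was Tceb2 in the Nedd4+/+ library (0.0122 and 0.0242 times) and Rnf7 in the Nedd4-/- library (0.0126 and 0.0201 times).

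**Figure D3:**
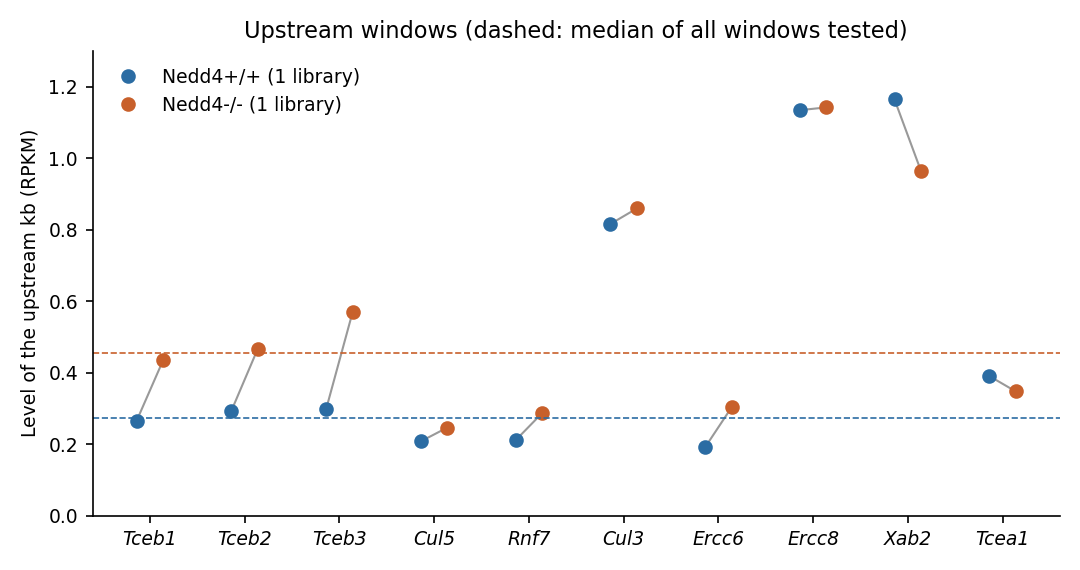
Level of the kb upstream of each of the 10 genes in RPKM, Nedd4+/+ (blue) joined to Nedd4-/- (orange); dashed lines mark each library's median over all windows tested. In both libraries Cul3, Ercc8 and Xab2 lie above both dashed lines, while Tceb2 and Tceb3 lie above the median of the same library. The steepest upward lines are those of the 3 elongin genes.

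The windows of Xab2 and Ercc8 each hold the start of a coding gene on the other strand, in the GRCm38 annotation. Ndufaf2, an assembly factor of respiratory complex I, starts upstream of Ercc8 and stood at 4.60 and 4.17 RPKM. 2900053A13Rik, also called Pet100, an assembly factor of cytochrome c oxidase, starts upstream of Xab2 and stood at 4.87 and 5.46 RPKM. In GENCODE, no other gene was annotated in the windows of Tceb2, Tceb3, Rnf7, Cul3 and Ercc6. In the RefSeq annotation, another gene covers the bases beyond 222 before the start of Cul3, and its level is not analysed here. RefSeq genes were not sought further than 250 bases upstream. In the 250 bases before the RefSeq start, annotated exons of the gene itself were found for Tceb2, Tceb3, Cul5, Ercc8 and Xab2. The windows of these genes may thus hold reads of the gene's own transcripts. Tceb1 and Tcea1 had no promoter sequence at hand and were not checked for this. Their windows were placed from the GENCODE gene start. The window of Tceb1 holds the start of a noncoding RNA, D030040B21Rik, at 0.0414 and 0.101 RPKM. The window of Cul5 overlaps an antisense gene, Gm16124, and that of Tcea1 a gene on its own strand, Gm37988, whose levels are not analysed here. The part of a divergent transcript in an upstream level was not tested, since the values carry no strand.

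Promoter sequences show the setting of the windows that were highest (Xab2, Ercc8, Cul3) and of the one with the highest ratio (Tceb3). They are RefSeq sequences of build GRCm38.p6, written 5' to 3' on the strand of the gene, and hold the longest stretch within 250 bases before the start that no annotated exon or other gene covers. The measured windows are of build mm9 and are tied to these sequences by gene only. Capitals mark, on either strand, the GC box GGGCGG, the NF-Y binding box CCAAT, the ETS family site CCGGAAG and the cyclic AMP response element TGACGTCA. The stretch of Ercc8 is short because Ndufaf2 begins beside it, and its CCAAT boxes stand on opposite strands.
Xab2, chr8:3621317-3621546, minus strand: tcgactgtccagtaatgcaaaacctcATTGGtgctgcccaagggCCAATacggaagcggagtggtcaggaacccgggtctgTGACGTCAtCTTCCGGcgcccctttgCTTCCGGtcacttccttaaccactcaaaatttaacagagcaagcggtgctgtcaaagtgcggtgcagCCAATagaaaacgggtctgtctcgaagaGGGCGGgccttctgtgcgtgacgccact
Ercc8, chr13:108158653-108158730, plus strand: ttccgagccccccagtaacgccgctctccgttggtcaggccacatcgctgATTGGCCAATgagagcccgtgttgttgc
Cul3, chr1:80340691-80340912, minus strand: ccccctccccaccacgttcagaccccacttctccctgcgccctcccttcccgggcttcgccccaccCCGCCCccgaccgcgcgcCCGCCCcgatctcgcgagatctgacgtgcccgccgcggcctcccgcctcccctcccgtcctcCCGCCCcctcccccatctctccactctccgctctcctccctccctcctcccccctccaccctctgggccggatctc
Tceb3, chr4:136021764-136021899, minus strand: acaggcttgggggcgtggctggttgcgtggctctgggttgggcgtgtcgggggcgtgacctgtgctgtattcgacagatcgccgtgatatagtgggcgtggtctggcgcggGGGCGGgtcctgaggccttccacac

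Of the 10 genes, 8 had a promoter sequence at hand, and all 8 held more CG dinucleotides in 250 bases than the median promoter, between 13 and 28 against 6. GGGCGG was found in 7 of 8, against 32.7% of 32851 promoters of all kinds of genes. That background was not limited to expressed coding genes, and how the 8 compare with such genes was not tested. CCGGAAG was found in 3 of 8 (Tceb2, Tceb3 and Xab2) against 6.91%, TGACGTCA in 2 of 8 (Rnf7 and Xab2) against 1.55%, and CCAAT in 3 of 8 against 33.8%. TATAAA occurred in 1 of 8, Cul5, against 12.4% and CACGTG in 2 of 8 (Ercc6 and Ercc8) against 6.02%. Motifs were read on both strands, and a match describes the letters only. They were counted over all 250 bases, also where annotated exons or other genes cover them, as they do throughout for Cul5. The GGGCGG and CACGTG of Ercc8 and the CCGGAAG of Tceb3 lie outside the stretches printed above.

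Substrate receptors that bind elongins B and C choose what the elongin ligases mark. Of 53 such genes 36 were tested, 17 above and 19 below the median of all genes, with a list median of -0.32. Past 2-fold were Klhdc2, a receptor of CUL2 ligases, at 10.6 and 66.2 RPKM (2.53), and Socs3, a feedback inhibitor of cytokine signalling, at 8.96 and 3.04 RPKM (-1.303). Relative to all genes Socs3 was at -0.99 and no longer past it. Cish, another cytokine feedback gene, stood at 7.01 and 8.70 RPKM (0.28), and Lrr1, which serves in unloading the replicative helicase, at 1.51 and 1.58 RPKM (0.04).

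Partners of the cullins lay close to other genes. Of 48 tested BTB adaptors of Cul3, 28 were above and 19 below the median of all genes, with none past 2-fold and a median of -0.28. Keap1, the adaptor for the oxidative stress factor NRF2, stood at 9.16 and 5.57 RPKM (-0.63) and Rhobtb1 at 2.01 and 0.961 RPKM (-0.62), while Enc1 (0.09) was at the other end. Among 28 tested genes of other cullins and of cullin activation by NEDD8, 20 lay above and 8 below, none past 2-fold, with a median of -0.25. Furthest from the median were Gps1, a subunit of the COP9 signalosome that removes NEDD8 (0.05), Cul7 (-0.01), the RING inhibitor gene Glmn (-0.02) and Cand2 (-0.04).

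Other genes of nucleotide excision repair gave 38 tested genes, 24 above and 14 below the median of all genes, with a median of -0.26 and none past 2-fold. Rad23b, a partner of the damage sensor XPC, stood at 28.3 and 15.5 RPKM (-0.83). Xpa, which verifies damage, stood at 3.41 and 1.80 RPKM (-0.65), Xrcc1, a ligase scaffold, at 10.2 and 6.20 RPKM (-0.64), and Rpa3, of the single-strand binding complex, at 11.01 and 11.2 RPKM (0.02). This list shares 4 genes with that of the other cullins. It also shares Usp7 with the list of polymerase ubiquitination and Elof1 with that of TFIIS relatives, both given below.

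The list of polymerase ubiquitination and extraction, which holds Nedd4 itself, had the lowest median, -0.43, with 9 of 25 tested genes above and 16 below the median of all genes. Only Nedd4 was past 2-fold (-1.54). Ubxn4, a cofactor of the p97 extraction ATPase, stood at 13.7 and 7.45 RPKM (-0.80), the ubiquitin gene Ubb at 116 and 70.7 RPKM (-0.71), and Ndfip1, an adaptor that activates Nedd4, at 28.1 and 16.8 RPKM (-0.71). Among 16 tested relatives of TFIIS and other rescue factors 8 lay above and 8 below, with a median of -0.34 and none past 2-fold. They ran from Supt5h, a subunit of the pausing factor DSIF, at 16.3 and 9.42 RPKM (-0.73), through Ell2 (-0.61) and Eaf2 (-0.59), to Tcea2, a tissue-restricted TFIIS, at 1.54 and 1.45 RPKM (-0.06). The genes themselves, with a median of -0.26, lay closer together than any of these lists, whose widest range ran from -1.303 to 2.53, and they are also the fewest.

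**Figure D4:**
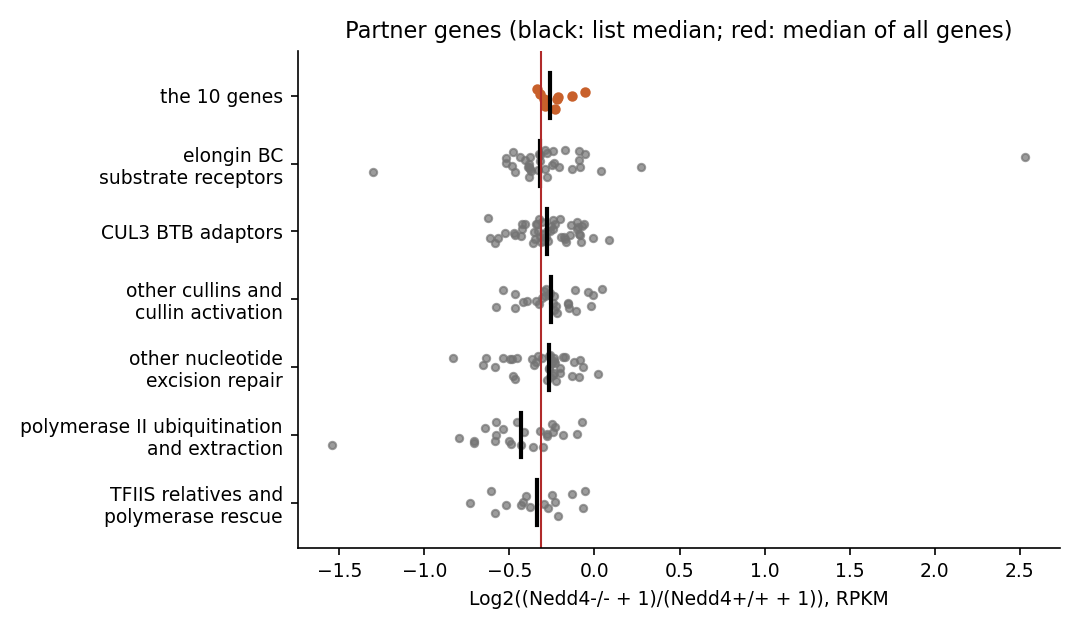
Log2 ratio of gene level (RPKM + 1) for the 10 genes (orange) and for tested genes of 6 partner lists (grey), with list medians in black and the median of all genes (-0.31) in red. The 10 genes lie between -0.34 and -0.06, and Klhdc2 at 2.53 and Nedd4 at -1.54 are the outermost points.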

How the data were processed

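RNA of 2 libraries was measured, 1 per genotype. Per the submitters' processing notes, TopHat, Cufflinks and mm9 were used, in roles and versions not given. The authors deposited RPKM per RefSeq transcript, per the file headers. The deposited upstream column is a ratio, the window's level over the gene's RPKM plus 0.0001: the product with that sum gave whole read bases, within 0.05, in all but 2 of 9407 low windows of the Nedd4+/+ library and in all 6099 of the Nedd4-/- library, so the product was used as the level. Read totals come from these steps. Read pairs per gene use GENCODE M21 transcript lengths and are approximate. Steps were checked on simulated data with Python 3.11.15, pandas 2.3.3 and SciPy 1.17.1. Copies were sought with BLAST 2.17.0. Named partners are up to 4 tested genes per list with the largest relative log2 ratio; the values of 1 such gene and of 1 marker are not reported here. The members and lists were chosen with earlier results of these data known. Alternatives covered pseudocounts, minimum levels and scaling.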

Additional observations from a re-analysis of the deposited data

How the results depend on the processing

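With 1 library per group, no replicate could be left out. No paired analysis was possible because each group has 1 sample. Centring on the median of all genes moved the median log2 ratio of the 10 genes from -0.26 to 0.0532, and scaling to annotated transcripts moved it to 0.12. Centring moved the list medians to -0.0058 (substrate receptors), 0.032 (BTB adaptors), 0.0596 (other cullins), 0.0484 (excision repair), -0.12 (polymerase ubiquitination) and -0.0222 (TFIIS relatives). Without a minimum level, the median of all genes had 0 of the 10 above it and 0 intervals above it. Genes below the median were then 35 of 53 substrate receptors, 48 of 57 BTB adaptors and 30 of 32 other cullins. The counts were 38 of 38 for excision repair, 26 of 26 for polymerase ubiquitination and 18 of 20 for TFIIS relatives. Under this setting the median was set by 13883 further genes under 1 RPKM, whose median level was 0.133 RPKM for Nedd4+/+ and 0.268 RPKM for Nedd4-/-. With a minimum of 5 RPKM, fewer genes were tested, and 8 substrate receptors, 3 BTB adaptors and 8 excision repair genes lay below. These counts are therefore not out of the numbers tested in the main setting. Used as it stands, the deposited upstream ratio put 1 of the 10 past 2-fold, Tceb3. The upstream median of the 10, 0.24, turned to -0.17 when centred on all windows, and was 0.59 with the deposited ratio and 0.11 with 0.5 RPKM added. With these, 68 of 88 alternative values of medians and counts stayed within the counting error of a single gene or window, or 1.5 times the count. Some of the 68 could not move. Centring leaves counts above or below the median as they were, and dropping the minimum level leaves the medians of the 10 as they were. The upstream median of -0.17 is also among the 68, so this tally does not measure robustness. 3 alternatives were added after seeing the data: the level-range reference gave 10 genes above the median, intervals from single reads gave 5 above it, and subtracting the median level of genes under 1 RPKM gave a median of -0.29. The few read pairs per upstream window limit all upstream comparisons.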
